A study of Homo sapiens with 2 samples.

Results

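The genes of mitochondrial protein import were examined in MDA-MB-231 cells, an established human breast carcinoma line, on 1 array of control cells and 1 array of cells with stable knockdown of UGT8. UGT8 encodes the ceramide galactosyltransferase, which makes galactosylceramide in the endoplasmic reticulum. Members were all probe sets whose only gene symbol began with TIMM or TOMM, or was SAMM50, MTX1, MTX2, GRPEL1, GRPEL2, PAM16, DNAJC19, PMPCA, PMPCB, CHCHD4, GFER or OXA1L. They numbered 71 of 49495 probe sets and covered 36 genes. Per the series' design text, parental cells served as the control of a knockdown clone, so effects of cloning and of UGT8 loss cannot be told apart. The knockdown reagent is not given in the sources used here. Both groups were grown in DMEM with 5.6 mmol/L glucose and harvested 48 h after passage. With 1 array per group no difference was tested, none has a replicate check, and the number of arrays limits the precision.

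Most mitochondrial proteins are encoded in the nucleus, made in the cytosol and imported through the TOM complex of the outer membrane. From there they take different routes: beta-barrel proteins go to the SAM complex, carrier proteins are led by small TIM chaperones to the TIM22 complex, and proteins with a cleavable presequence pass the TIM23 channel, driven by a matrix motor built around the chaperone HSPA9. The MIA pathway folds small cysteine-rich proteins of the intermembrane space by oxidation, and OXA1L inserts proteins into the inner membrane from the matrix side.

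The targeted gene was lower on the array labelled as knockdown in all 3 of its probe sets, by -2.34, -1.68 and -2.27 on the log2 scale. VIM, the intermediate filament gene of mesenchymal cells, read 13.88 in the control and 13.89 in the knockdown. The other mesenchymal markers past the floor described next were lower, ZEB1 by -0.77, CD44 by -0.28, CAV1 by -0.15 and AXL by -0.11. Of the luminal list, the hormone receptor genes ESR1 and PGR lay below that floor, and KRT8 (11.25 and 11.30), GATA3 (8.73 and 8.51) and ERBB2 (8.56 and 8.73) lay past it. The leukocyte marker PTPRC (3.56 and 3.40) and the endothelial marker CDH5 (4.61 and 4.61) lay below the mean of the background probe sets (4.73 on both arrays), whereas CD68, of the leukocyte list, read 9.33 and 9.46. Of the other endothelial markers, PECAM1 (8.46 and 7.37, -1.09) and KDR (-0.36, with a mean of 6.82 over both arrays) lay past the floor. VWF (6.42 and 6.26) and the leukocyte marker CD3E (5.67 and 5.64) lay below the floor but above the background mean. TEK (4.61 and 4.69) and the leukocyte marker LYZ (3.37 and 3.45) lay below that mean. Of an adipocyte list, ADIPOQ (6.93 and 6.79) lay past the floor, and PLIN1, LEP and CIDEC lay between the background mean and the floor. The hybridisation spike-in RNAs differed by a median of 0.51 (higher in the knockdown), whereas the poly-A control RNAs differed by a median of 0.07. The log2 difference between the 3' and 5' probe sets was 0.49 in the control and 0.90 in the knockdown for ACTB, and 0.18 and 0.19 for GAPDH. The part of these readings in the differences below was not tested.

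Import genes were mostly higher on the knockdown array. Each gene was read by its brightest probe set, judged by the mean of the 2 arrays, and a floor on that mean (log2 6.64, the median of all non-control probe sets) left 33 of the 36 members among 10439 genes. Of these 33, 31 were above 0, beside 53.5% of all genes past the floor, and the other two were TOMM70 and OXA1L. The median difference of the members was 0.41 (1.33-fold), with quartiles of 0.25 and 0.53, beside a median of 0.03 for all genes. At least 1.5-fold higher were 8 members (24.2%), TIMM10, TIMM8B, TOMM40, TIMM50, TOMM5, TIMM22, TIMM21 and PMPCA, beside 4.96% of all genes. None was at least 1.5-fold lower, beside 6.74% of all genes. None reached 2-fold higher, beside 0.738%, and 22 members were at least 25% higher, beside 18% of all genes.

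These directions are on the deposited scale, on which both arrays had a median of 6.64. Centred on the hybridisation control RNAs, the median of all genes was -0.48, that of the members was -0.10, and 10 of 33 members were above 0, beside 7.11% of all genes. These were the 8 just named with TIMM23 and TIMM13. Centred on the poly-A controls 29 were above 0, beside 44.6% of all genes, and GRPEL2 and TIMM17B joined TOMM70 and OXA1L below it. The members' median lay 0.38 above that of all genes on each of these scales. This distance cannot change between them, since centring subtracts the same value from every gene. Centred on the median gene, 5 members were at least 1.5-fold higher, TIMM10, TIMM8B, TOMM40, TIMM50 and TOMM5, beside 4.25% of all genes, since PMPCA (0.59), TIMM21 (0.60) and TIMM22 (0.61) lay just past the threshold of 0.58. Just below it were 4 members between 1.4-fold and 1.5-fold, TIMM23, TIMM13, CHCHD4 and TIMM29. Among the 2833 genes between the quartiles of the members' level, 54.8% were above 0 and 5.05% were at least 1.5-fold higher.

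**Figure D1:**
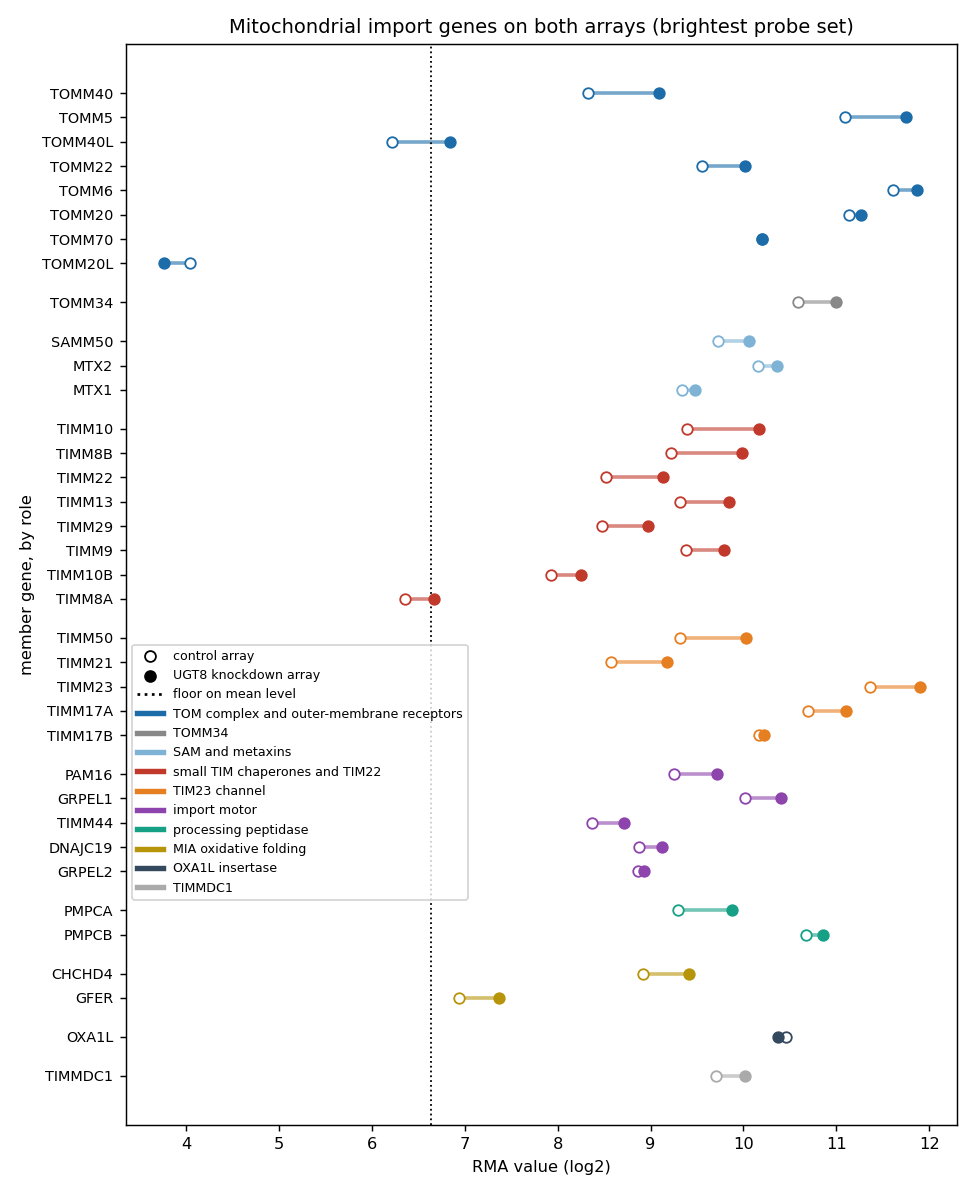
RMA values (log2) of the 36 import genes on the control array (open circles) and the UGT8 knockdown array (filled circles), each read by its brightest probe set and grouped by role, with the floor as a dotted line. On the deposited scale 31 of the 33 genes past the floor lie further right on the knockdown array, and 10 of 33 do after centring on the hybridisation controls; positions of different genes are not comparable, since each probe set has its own response.

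In the TOM complex, the channel gene and TOMM5 differed most and the receptor genes TOMM20 and TOMM70 least. Values are given as control and then knockdown, with the difference in parentheses. TOMM40, which forms the channel, read 8.32 and 9.09 (0.77, 1.70-fold). Its only probe set has a name (_x_at) that says it may also bind other transcripts. TOMM5, a small subunit of the complex, read 11.09 and 11.75 (0.66, 1.58-fold), and its 3 probe sets differed by 0.66 to 0.74. TOMM22, the receptor that organises the complex, read 9.56 and 10.02 (0.46). The small subunit gene TOMM6 read 11.61 and 11.86 (0.25). The presequence receptor gene TOMM20 read 11.13 and 11.26 (0.13), and its other probe set differed by -0.09. TOMM70, the receptor for carrier precursors and their cytosolic chaperones, read 10.20 on both arrays, and its 3 probe sets lay between -0.08 and 0.01. The 6 measured genes of this group had a median of 0.36 and 2 of them were at least 1.5-fold higher. TOMM40L (6.21 and 6.84) and TOMM20L (4.04 and 3.76), paralogues of TOMM40 and TOMM20, lay below the floor. TOMM34, a cytosolic co-chaperone of precursor proteins and no part of the TOM complex, differed by 0.41 and by 0.58 in its 2 probe sets.

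The 3 genes of beta-barrel assembly in the outer membrane differed less. SAMM50, the core of the SAM complex, read 9.73 and 10.06 (0.34). Its partners were close to each other, with MTX2 at 10.16 and 10.36 (0.20) and MTX1 at 9.33 and 9.48 (0.15). Their median was 0.20.

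The small TIM chaperones and the TIM22 complex were, with the TIM23 channel, the role groups with the highest medians, 0.53 in each. All 7 measured genes of the TIM22 route were above 0 on the deposited scale, and their median was 0.016 when centred on the hybridisation controls. TIMM10, which with TIMM9 forms the chaperone hexamer for carrier precursors, read 9.40 and 10.17 (0.77, 1.71-fold). Its partner TIMM9 read 9.38 and 9.80 (0.41, 1.33-fold). TIMM8B read 9.22 and 9.99 (0.77, 1.70-fold) in a probe set whose name (_s_at) says that it may also bind other transcripts, and its other probe set differed by 0.17. TIMM13, the partner of TIMM8A in the other small TIM hexamer, read 9.31 and 9.84 (0.53), and its dimmer probe set differed by 0.01. The TIM22 complex itself was represented by the pore gene TIMM22 (8.53 and 9.13, 0.61), by TIMM29 (8.48 and 8.97, 0.49) and by TIMM10B (7.93 and 8.25, 0.33). The 4 probe sets of TIMM10B differed by 0.33 to 0.86, and their mean was 0.59. TIMM8A, the gene of deafness-dystonia syndrome, lay below the floor, and its brighter probe set read 6.36 and 6.67 (0.32). Its other probe set, which read 4.74 and 5.82 (1.08), was near the background in the control and had the highest difference of the 71.

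In the TIM23 complex, the receptor and regulatory genes and the channel gene were higher, and TIMM17B lay near 0. TIMM50, the receptor that takes over presequence proteins from the TOM complex, read 9.32 and 10.02 (0.71, 1.63-fold). Its 3 probe sets past the floor differed by 0.71, 0.80 and 0.71, and a probe set at 3.63, below the floor, by -0.12. TIMM21, which links TIM23 to the TOM complex and the respiratory chain, read 8.57 and 9.17 (0.60), with 0.53 in its other probe set. TIMM23, the channel gene, read 11.37 and 11.90 (0.53). A further probe set of TIMM23 differed by 0.58 and the dimmest by 0.00. The copy TIMM23B is nearly identical in sequence, so which copy these probe sets read is uncertain. The 2 forms of the remaining channel subunit differed from each other: TIMM17A read 10.70 and 11.10 (0.40, 1.32-fold) and TIMM17B 10.17 and 10.22 (0.05, 1.04-fold).

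The 5 genes of the import motor were all above 0 on the deposited scale, with a median of 0.34 and none at least 1.5-fold higher. Centred on the hybridisation controls that median was -0.17. PAM16, the J-like regulator of the motor, read 9.26 and 9.72 (0.46). GRPEL1, the nucleotide exchange factor of the motor chaperone, read 10.02 and 10.41 (0.39), whereas its paralogue GRPEL2 read 8.87 and 8.93 (0.06). The other probe set of GRPEL1 differed by 0.31, and that of GRPEL2, which lay below the floor, by 0.28. TIMM44, which tethers the chaperone to the channel, read 8.38 and 8.72 (0.34). DNAJC19, a J-protein of the inner membrane, read 8.88 and 9.13 (0.25), and its dimmer probe set differed by 0.67. The motor chaperone HSPA9, which is not a member by name, read 11.51 and 12.01 (0.50, 1.41-fold).

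The peptidase that removes presequences consists of PMPCA, which binds substrates, and PMPCB, which cleaves them. PMPCA read 9.29 and 9.88 (0.59), but a probe set below the floor differed by -0.03. PMPCB read 10.67 and 10.86 (0.19), and its 2 other probe sets past the floor differed by 0.04 and -0.31. Averaged over all 4 of its probe sets, PMPCB differed by -0.04. In the MIA pathway, the oxidoreductase gene CHCHD4 read 8.92 and 9.41 (0.49), with 0.40 in its other probe set. GFER, the sulfhydryl oxidase that recharges CHCHD4, read 6.94 and 7.37 (0.42), and its other probe set, which lay just above the floor, differed by -0.03. OXA1L, the insertase, read 10.46 and 10.37 (-0.09), and all 4 of its probe sets lay between -0.09 and 0.03. TIMMDC1 shares the name prefix but is known as an assembly factor of respiratory complex I, and it read 9.71 and 10.01 (0.30).

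Over all 71 probe sets, with no floor, 58 were above 0 (81.7%), beside 50.6% of all probe sets with 1 gene symbol. At least 1.5-fold higher were 17, beside 3.56%, and none was at least 1.5-fold lower. The median difference was 0.34, beside 0.01 for all probe sets with 1 symbol. The 12 member probe sets below the floor had a median of 0.11 and the 59 past it one of 0.40. In 13 of the 18 members that had 2 or more such probe sets, each of these was above 0, although the lowest of TIMM23 and TIMM13 lay at 0.00 and 0.01. The 5 with probe sets on either side of 0 were GFER, PMPCB, TOMM20, TOMM70 and OXA1L. For comparison, probe sets reading the same gene disagreed by a median SD of 0.083 over all 6067 genes that could be so compared. This is no replicate error and not the spread of each member. Probe sets lay far apart in some members, such as TIMM8B (0.77 and 0.17), TIMM13 (0.53 and 0.01) and DNAJC19 (0.25 and 0.67). They lay closer in others, such as CHCHD4 (0.49 and 0.40) and TOMM5 (0.66 to 0.74).

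**Figure D2:**
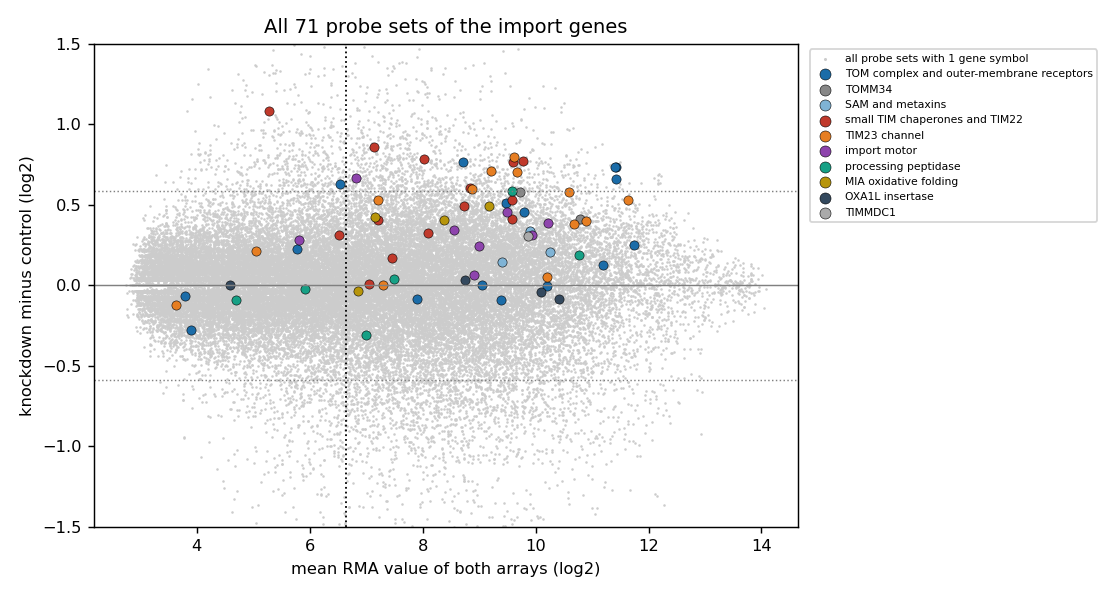
Difference between the UGT8 knockdown and the control array (log2) against the mean RMA value of both arrays for the 71 probe sets of import genes, coloured by role, over all probe sets with 1 gene symbol in grey; the vertical dotted line is the floor, horizontal dotted lines mark 1.5-fold, and grey points beyond 1.5 in either direction are not drawn. On the deposited scale 58 of the 71 lie above 0, and PMPCB has the lowest at -0.31; centring on the hybridisation controls would lower every point by 0.51.

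Some members differed by more than a near relative in the set did. GRPEL1 differed by 0.39 and GRPEL2 by 0.06, TIMM17A by 0.40 and TIMM17B by 0.05, and PMPCA by 0.59 and PMPCB by 0.19. These are readings of the brightest probe sets, and that of GRPEL2 is marked _s_at and that of TIMM17A _x_at. An unmarked probe set of TIMM17A past the floor differed by 0.38. Averaged over all probe sets, PMPCA differed by 0.28 and PMPCB by -0.04. The other GRPEL2 probe set, below the floor, differed by 0.28, beside 0.31 in the other of GRPEL1. The metaxins MTX1 (0.15, in an _x_at probe set) and MTX2 (0.20) were closer to each other. Whether relatives differed from one another was not tested, since each difference comes from 1 pair of arrays.

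Promoter sequences from RefSeq (GRCh38.p14) were found for 33 of the 36 members, as 300 bases from 250 before to 50 after the start of the gene. They were searched on both strands for CCGGAAG, the core bound by ETS factors such as GABPA, for GCGCA followed after 1 base by GCGC, the site of the nuclear respiratory factor NRF1, for the E-box CACGTG and for CCAAT; overlaps between motifs were allowed. The ETS core was held by 15 of 33 members (45.5%), beside 19.6% of the promoters of genes past the floor and 10.7% of all promoters in the table. The NRF1 motif was held by 8 members (24.2%), beside 12.4% and 6.28%. The E-box was held by 3 members (9.09%), beside 10.5% and 7.43%, and CCAAT by 12 members (36.4%), beside 36.7% and 35.7%. These 33 include members below the floor. Of the 30 member promoters of genes past the floor, 15 held the ETS core, 8 the NRF1 motif, 2 the E-box and 11 CCAAT. Among members past the floor, the 15 with an ETS core had a median difference of 0.30 and the 15 without had 0.42. Over all genes past the floor with a promoter in the table, the order was the other way, with 0.10 for those with the core and 0.02 for those without. The 8 with an NRF1 motif had a median of 0.43 and the 22 without had 0.37, beside 0.10 and 0.02 over all such genes.

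The 160 bases before the start are shown for 5 members that differ in motif and in difference, with whole ETS cores and NRF1 motifs in capitals. TIMM10 (0.77; chr11:57530755-57530914, minus strand) and TIMM23 (0.53; chr10:45972329-45972488, plus strand) hold ETS cores. CHCHD4 (0.49; chr3:14124871-14125030, minus strand) holds a pair of NRF1 motifs. TIMM50 (0.71; chr19:39480678-39480837, plus strand) holds neither motif in this window. TOMM70 (0.00; chr3:100401090-100401249, minus strand) holds ETS cores at a difference near 0. Such a match is a description of the letters only.
TIMM10: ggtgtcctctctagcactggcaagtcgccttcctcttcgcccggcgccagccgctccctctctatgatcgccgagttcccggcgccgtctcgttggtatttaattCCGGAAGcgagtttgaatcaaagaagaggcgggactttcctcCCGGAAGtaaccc
TIMM23: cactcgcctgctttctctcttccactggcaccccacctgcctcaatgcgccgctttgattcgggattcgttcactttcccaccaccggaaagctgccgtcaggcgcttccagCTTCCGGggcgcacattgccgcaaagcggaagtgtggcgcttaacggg
CHCHD4: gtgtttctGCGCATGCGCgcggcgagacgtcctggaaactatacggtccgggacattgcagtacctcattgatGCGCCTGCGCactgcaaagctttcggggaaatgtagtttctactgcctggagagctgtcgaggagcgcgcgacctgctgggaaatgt
TIMM50: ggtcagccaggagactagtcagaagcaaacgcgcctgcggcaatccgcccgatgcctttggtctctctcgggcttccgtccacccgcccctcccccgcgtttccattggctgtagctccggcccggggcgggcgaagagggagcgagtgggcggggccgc
TOMM70: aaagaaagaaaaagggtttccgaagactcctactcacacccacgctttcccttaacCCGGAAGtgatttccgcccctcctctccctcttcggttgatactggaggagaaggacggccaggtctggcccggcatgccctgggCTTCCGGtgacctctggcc
The ETS core is thus present in the windows of TIMM10 and TOMM70, which lie near either end of the range of differences. TIMM23 holds a further ETS core at position 10 after the start, outside the window shown.

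The lists of other genes of the import pathway had lower medians than the members. Over all genes past the floor, 53.5% were above 0, 4.96% at least 1.5-fold higher and 6.74% at least 1.5-fold lower. Of 21 other import factors past the floor, including cytosolic chaperones, VDAC channels and accessory subunits, 19 were above 0 and none was at least 1.5-fold different, with a median of 0.19. ROMO1, a small subunit of the TIM23 complex, differed by 0.36 and AGK, a kinase that is also part of the TIM22 complex, by 0.28. The matrix chaperone genes HSPD1 (12.29 and 12.58, 0.29) and HSPE1 (11.67 and 12.09, 0.42) form the chaperonin that folds imported proteins. HSPE1 differed by 0.30 averaged over all its probe sets and by 0.07 without those marked _s_at or _x_at. With TRAP1, HSCB and DNAJA3 they made 5 of 5 matrix chaperones above 0, with a median of 0.32. The 14 presequence and inner-membrane proteases had a median of 0.06, with 9 above 0 (64.3%) and none past 1.5-fold. Of 19 substrates of the MIA pathway 14 were above 0 (73.7%), with a median of 0.24. COA4 (0.65) and CMC2 (0.62), factors for cytochrome oxidase, were at least 1.5-fold higher (10.5%). The 11 regulators of nuclear-encoded mitochondrial genes had a median of 0.02, and none was past 1.5-fold. Their differences ran from -0.55 to 0.49, with 7 above 0 (63.6%). Of the factors named for the motifs, GABPA differed by -0.47 and NRF1 by -0.02, and any relation to the members was not tested.

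Among other mitochondrial gene sets, the ribosomal proteins resembled the import genes and the respiratory subunits lay lower. Over all genes past the floor 53.5% were above 0 and 4.96% at least 1.5-fold higher. Of 76 mitochondrial ribosomal protein genes 71 (93.4%) were above 0 and 12 (15.8%) were at least 1.5-fold higher. Their median was 0.38, which is 0.03 below that of the import genes. Of 77 nuclear-encoded OXPHOS subunits 64 (83.1%) were above 0 and 2 (2.60%) were at least 1.5-fold higher. Some of these subunits are also MIA substrates and were counted in both lists. The OXPHOS median was 0.21, which is 0.20 below that of the import genes. Centred on the hybridisation controls these medians were -0.13 and -0.30, beside -0.10 for the import genes. The sets also differed in level, with a median of 9.67 for the import genes, 10.09 for the ribosomal proteins and 11.52 for the OXPHOS subunits. The part of level in these differences was not tested. These differences between sets come from 1 pair of arrays and were not tested.

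**Figure D3:**
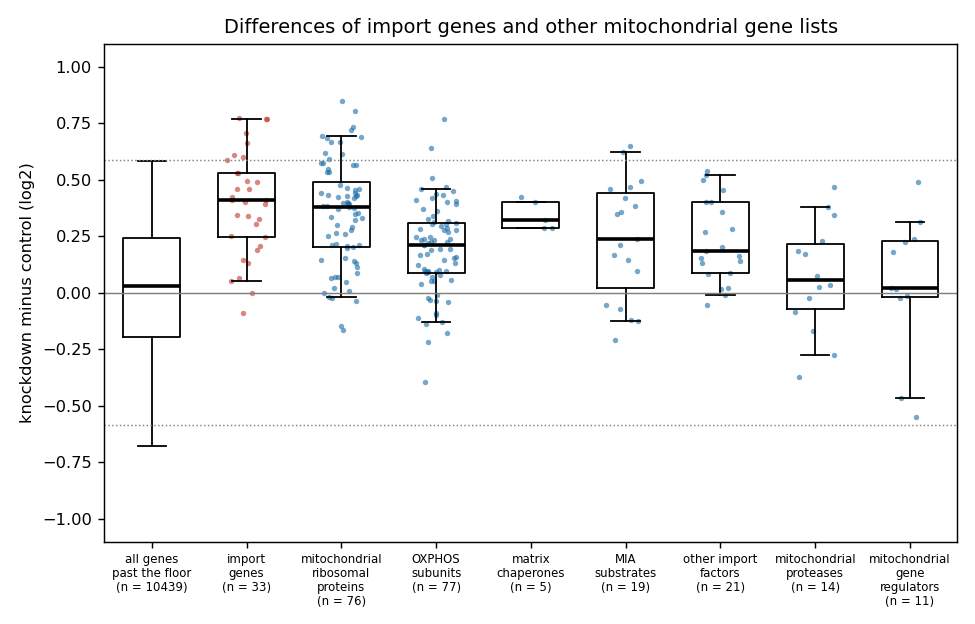
Difference between the UGT8 knockdown and the control array (log2) for all genes past the floor and for import genes (red) and other mitochondrial lists (blue, 1 point per gene); boxes show quartiles and median, whiskers the 5th and 95th percentiles, and dotted lines 1.5-fold. On the deposited scale the import genes (median 0.41) and mitochondrial ribosomal proteins (0.38) lie above all genes (0.03). Mitochondrial gene regulators lie at 0.02. Centring on the hybridisation controls lowers every value by 0.51 and brings these medians below 0. Some genes are in both the MIA substrate and the OXPHOS list and are drawn in each.

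**Figure D4:**
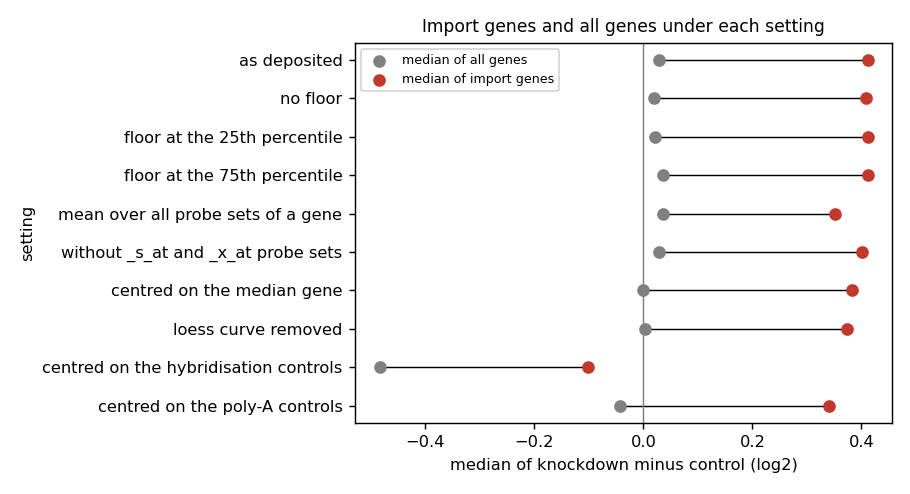
Median difference (log2) of import genes (red) and of all genes (grey) under each processing setting, 1 row per setting. The members' median lies between 0.32 and 0.39 above that of all genes in each setting shown, and both medians lie below 0 only when centred on the hybridisation controls. In the centred rows this distance is that of the deposited scale by arithmetic, since centring subtracts the same value from every gene.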

How the data were processed

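Biotinylated cRNA from total RNA was hybridised to 2 Affymetrix arrays, per the labels. RMA, named in the submitters' processing notes, gave the deposited log2 values; which software and version ran it is not given in the sources used here. RMA corrects background, normalizes between arrays and summarises probe sets, which removes any shift common to most transcripts. Groups came from the genotype labels. Probe sets were named through the platform annotation, with symbols updated through gene IDs to RefSeq's GRCh38.p14 table (45208 of 45278 probe sets with 1 symbol found). Differences are knockdown minus control (pandas 2.3.3, statsmodels 0.14.6 for loess). No test was run. Gene reading and counts were tested on simulated data. Every member could be named; of other lists, genes past 1.5-fold and HSPA9, HSPD1, HSPE1, ROMO1 and AGK. Other names (UGT8, markers, TRAP1, HSCB and DNAJA3, and the motif factors GABPA and NRF1) complete a check or a count. Members and lists were chosen with earlier results of these data known. Alternatives were other floors, probe-set readings, centrings, a loess curve (fraction 0.3) and lower and higher fold thresholds (25% higher, and 2-fold).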

Additional observations from a re-analysis of the deposited data

How the results depend on the processing

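The members' median stayed above 0 under every setting tried but centring on the hybridisation controls, and the number at least 1.5-fold lower stayed at 0 under all others too. The number at least 1.5-fold higher went from 8 to 5 when centred on the median gene, on the poly-A controls, after a loess curve was removed, and with all probe sets of a gene averaged; the shares of all genes were 4.25%, 3.45%, 4.35% and 4.28%. In the last case 4 of these 5 were among the 8, and TIMM10B was the fifth. It was 22 at a threshold of 25% higher and 0 at 2-fold. Centred on the hybridisation controls it was 0, with 1 lower (OXA1L) and 10 above 0, beside 0.479% of all genes higher, 37.1% lower and 7.11% above 0. On that scale the medians were -0.10 for the members, -0.17 for their probe sets, -0.16 for the TOM complex, -0.31 for SAM and metaxins, 0.016 for the small TIM group and 0.018 for TIM23. They were -0.17 for the motor, -0.13 for the processing peptidase, -0.053 for MIA, -0.33 for other import factors, -0.46 for proteases and -0.19 for matrix chaperones. They were -0.27 for MIA substrates, -0.49 for regulators, -0.13 for mitochondrial ribosomal proteins and -0.30 for OXPHOS subunits. This follows from subtracting 0.51 from every difference. Lowering the floor to the 25th percentile, where TOMM40L enters, gave a TOM median of 0.46, and it was 0.23 over the 4 genes left without probe sets marked _s_at or _x_at. Raising it to the 75th percentile gave 0.35 for the MIA substrates and 0.23 for the regulators, over fewer genes. Averaging all probe sets of a gene gave 0.37 for TIM23, 0.12 for the processing peptidase and 0.32 for MIA; there dim probe sets enter. Without marked probe sets TIMM8B differed by 0.17, TOMM20 by -0.09, HSPE1 by 0.07 and TIMM50 by 0.80, and TOMM40, TIMM23 and TIMM29 were among the members left without a reading. No paired analysis was possible because each group holds 1 array and the labels give no replicate numbers. No replicate could be left out for the same reason. TIMM8A, TOMM40L and TOMM20L lay below the floor, and TOMM20L also below the mean of the background probe sets.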

Other observations

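Probe sets annotated to several genes were left out of the members. The 4 annotated to TOMM6 and PRICKLE4 differed by 0.33, 0.24, 0.33 and -0.16, the last at a level below the floor. The probe set annotated to TIMM23 and TIMM23B differed by 0.56. TOMM7, a small TOM subunit, was present only in a probe set it shares with C4orf46, which read 12.18 in control and 12.44 in knockdown cells (0.26).

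Genes of the SLC25 family, which holds the mitochondrial carriers, were examined after the members' values had been seen. They were taken by symbol alone, so the list is not limited to proteins imported through the TIM22 route. Of 32 SLC25 genes past the floor 25 were above 0 on the deposited scale, beside 53.5% of all genes, with a median of 0.22. At least 1.5-fold higher, beside 4.96% of all genes, were 3 carriers, SLC25A12 (0.67), an aspartate-glutamate carrier, SLC25A22 (0.66), a glutamate carrier, and SLC25A32 (0.62), a folate carrier. At least 1.5-fold lower, beside 6.74% of all genes, were 2 carriers, the citrate carrier gene SLC25A1 (-0.76) and the iron importer gene SLC25A37 (-0.64). With 1 array per group these values were not tested.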
